A study of Mus musculus with 21 samples.

Results

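Among mouse CD8 T cells expanded in 50 IU/mL IL-2, 733 cells had RNA of the inducible heat shock genes Hspa1a or Hspa1b counted in them. They were 288 of 3471 cells on day 3 (8.30%, 95% exact binomial interval 7.4% to 9.26%) and 445 of 3250 cells on day 5 (13.7%, 12.5% to 14.9%). The cells were selected on those 2 genes: a cell with at least 1 unique molecular identifier (UMI, which marks 1 captured RNA molecule) of either gene was called positive. The 733 cells are part of 6721 cells in the 2 libraries and of 106456 cells in all 21 libraries. Each library's positive cells were compared with the other cells of the same library, and both genes of the rule were left out of every comparison.

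The study followed OT1 cells, CD8 T cells that carry a transgenic T cell receptor for an ovalbumin peptide, in single-cell RNA-seq. Naive cells (day 0) were activated with beads coated with anti-CD3 and anti-CD28 antibodies. They were then grown without cytokine to days 3 and 5, or in IL-2, IL-2v (a mutant IL-2) or IL-15 at 5 or 50 IU/mL to days 3, 5 and 10. Each of the 21 combinations was 1 library, so a library and its condition cannot be told apart, cells are not replicates, and no test between conditions was made. Both libraries described here hold bead-activated OT1 cells in 50 IU/mL wild type IL-2. Their treatment label names interleukin-3, whereas the titles and the design text give IL-2, which was followed. The extraction protocol speaks of sorted tumour-infiltrating cells, and the growth protocol of cultured cells.

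Hspa1a and Hspa1b encode the stress-inducible cytosolic HSP70 chaperone, which binds unfolded protein and hands it to HSP90 or releases it for refolding. In unstressed cells both genes are nearly silent. When unfolded protein accumulates, the transcription factor HSF1 forms trimers, binds heat shock elements in promoters and switches on HSP70 together with its J-domain partners, its nucleotide exchange factors, HSP90 and small heat shock proteins. In T cells the same genes are known to respond to heat and to other stress of proteins.

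The 2 genes are neighbours on mouse chromosome 17 (GRCm38). Hspa1b lies at chr17:34956436-34959238 and Hspa1a at chr17:34969190-34972156, both on the minus strand. Their transcripts share much of their sequence: 63.8% of the 31-base words of Hspa1a also occur in Hspa1b. The split of UMIs between them is therefore uncertain, and their sum was used. An annotated gene on the other strand, Gm20481, overlaps an exon of Hspa1a. The sequences just before the start sites of the selecting genes are shown first because they are near copies of each other. They are followed by those of 5 chaperone genes described below, chosen after their matches were known: 4 with a match, of which Hspe1 passed 1.5-fold on day 5 only and Dnaja1 is shown at its 1 matching start of 3, and Dnajb1, which has none. Each line gives 150 bases 5′ to 3′ up to the RefSeq start site (GRCm38.p6), with matches to GAANNTTC or TTCNNGAA in capitals. Each of these motifs reads the same on both strands.
Hspa1a (chr17:34972157-34972306, minus strand): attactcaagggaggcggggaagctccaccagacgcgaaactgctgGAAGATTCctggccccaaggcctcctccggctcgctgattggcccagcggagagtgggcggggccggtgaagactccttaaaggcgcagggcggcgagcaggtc
Hspa1b (chr17:34959239-34959388, minus strand): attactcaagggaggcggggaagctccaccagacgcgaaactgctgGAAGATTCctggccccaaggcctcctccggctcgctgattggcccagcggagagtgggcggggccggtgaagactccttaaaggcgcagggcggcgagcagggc
Hspb1 (chr5:135887769-135887918, plus strand): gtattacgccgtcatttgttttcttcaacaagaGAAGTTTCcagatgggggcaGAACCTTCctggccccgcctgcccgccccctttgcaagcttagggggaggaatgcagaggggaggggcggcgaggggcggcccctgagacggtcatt
Dnajb1 (chr8:83608025-83608174, plus strand): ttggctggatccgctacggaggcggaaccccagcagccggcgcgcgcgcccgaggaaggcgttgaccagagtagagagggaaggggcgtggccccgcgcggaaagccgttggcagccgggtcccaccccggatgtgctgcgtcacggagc
Dnaja1 (chr4:40722318-40722467, plus strand): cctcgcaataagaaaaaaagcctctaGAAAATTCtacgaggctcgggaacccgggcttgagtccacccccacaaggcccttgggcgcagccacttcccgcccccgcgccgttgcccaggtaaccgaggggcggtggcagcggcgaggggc
Hsph1 (chr5:149636337-149636486, minus strand): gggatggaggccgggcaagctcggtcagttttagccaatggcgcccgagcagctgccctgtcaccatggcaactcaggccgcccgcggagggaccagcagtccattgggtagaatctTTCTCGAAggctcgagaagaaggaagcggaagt
Hspe1 (chr1:55087998-55088147, plus strand): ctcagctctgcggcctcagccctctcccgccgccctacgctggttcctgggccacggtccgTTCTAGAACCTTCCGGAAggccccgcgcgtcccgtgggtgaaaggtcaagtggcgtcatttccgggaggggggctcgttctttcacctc

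The windows of Hspa1a and Hspa1b differed at 1 of 150 bases, and both held GAANNTTC starting 104 bases before the start site. Hspb1 held 2 copies, 117 and 97 bases before its start. Hspe1 held 3 overlapping matches, whose first bases lay 89, 84 and 79 bases before its start. The same 3 matches lay in a window of Hspd1 on the other strand. Of all 32851 windows of this length in the table, 7.73% held a match. Counted by gene and over all of a gene's listed starts, 8.91% of 27025 genes held one. A match describes the letters only and does not show binding.

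In the other 19 libraries positive cells were rare. They made up 0% to 0.884% of cells (median 0.0971%), 150 of 99735 cells in all, and 3 libraries had none. The 2 libraries of 50 IU/mL IL-2 on days 3 and 5 held 83.0% of all positive cells. The day 10 library of the same cytokine and dose had 8 positive cells of 4937. With cells thinned at random to 2000 UMIs and shallower cells left out (3347 and 2857 cells remained), the shares in the 2 libraries were 6.57% and 11.4% in one draw and 6.36% and 11.5% in another. Both libraries had the fewest cells of the 21, and the day 5 library had the lowest total, 10589950 UMIs. Libraries ranged from 3250 to 7105 cells and from a median of 3016 to 5065 UMIs per cell. The plot of shares by library shows this separation.

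**Figure D1:**
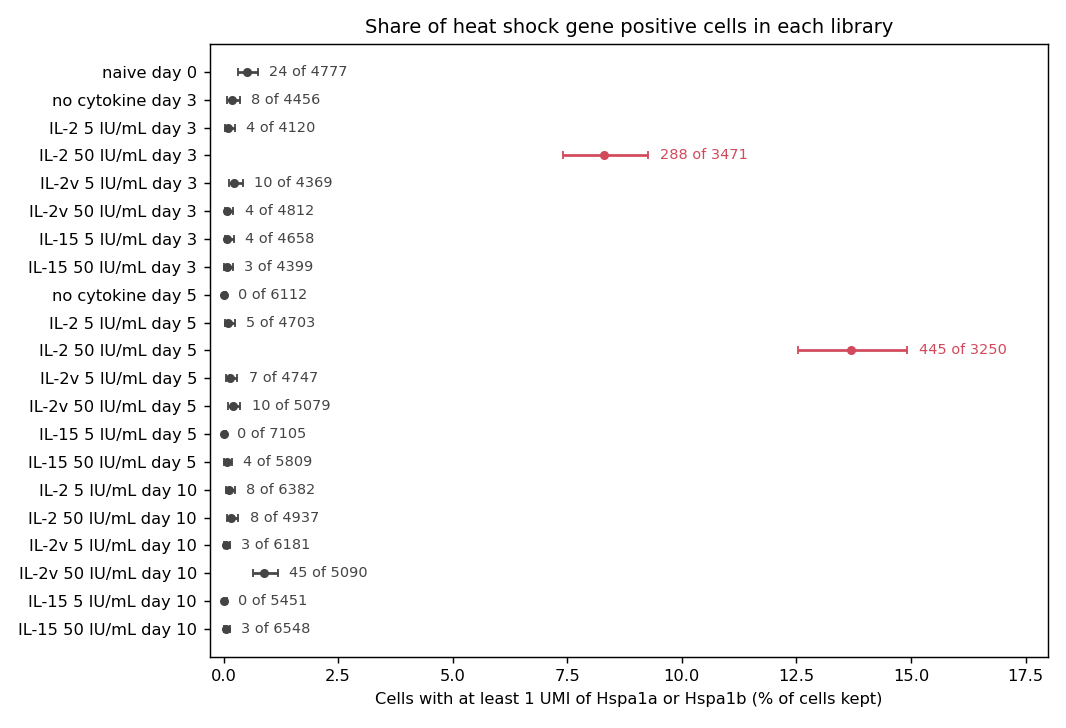
Share of cells with at least 1 UMI of Hspa1a or Hspa1b (% of cells kept) in each of the 21 libraries, with 95% exact binomial intervals and the numbers of cells beside each point. The 2 libraries in red stand at 8.30% and 13.7%, and none of the others is above 0.884%.

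The amount of heat shock RNA varied widely among the positive cells. On day 3, 104 cells had 1 UMI and 64 had 10 or more, with up to 65 in a cell. On day 5, 146 cells had 1 UMI and 86 had 10 or more, with up to 69. The median was 3 UMIs on both days. Free RNA in a droplet can also give a single UMI, and its share among the cells with 1 UMI was not tested. The cells with 10 or more held 66.3% of the Hspa1a and Hspa1b UMIs on day 3 and 58.3% on day 5. Both genes were counted in 160 of 288 cells on day 3 and in 245 of 445 on day 5. Given their shared sequence and the selection on both, these numbers do not show that both genes were expressed in a cell. In the other 19 libraries 3 cells had 5 or more UMIs and 1 had 10 or more.

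The positive cells were T cells by their markers, at levels close to those of the other cells. Cd3d, a subunit of the T cell receptor complex, had a UMI in 96.2% of positive and 95.5% of matched other cells on day 3, and in 91.0% and 92.8% on day 5. Cd8b1, a chain of the CD8 co-receptor, was seen in 67.7% and 70.5% on day 3 and in 51.9% and 56.2% on day 5. Cd4 was seen in at most 0.694% of either group. Among 14 markers of B, myeloid, erythroid and NK cells found in the files, Cd79b, a chain of the B cell receptor complex, reached 5.21% of positive and 3.47% of matched cells on day 3, and the next, Cd68, reached 2.47% of matched cells on day 5. Ms4a1, Lyz2, Csf1r, Hba-a1, Hba-a2 and Ncr1 were at 0 in positive and matched cells of both days, where 0 of 288 cells allows, by a limit of 3 counts, a share of cells with a UMI of up to 1.04%.

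For the comparison, each positive cell was paired with the other cell of its library nearest in UMIs. Mean depth was 5345 UMIs in positive and 5344 in matched cells on day 3, and 3224 and 3226 on day 5. UMIs were summed over each group and given as CPM, which scales them to the group's total without Hspa1a and Hspa1b. Genes with at least 20 CPM in either group were compared, which is about 31 UMIs on day 3 and 29 on day 5. A gene below 20 CPM in 1 group entered only through the group where it was higher, so its direction was fixed by this filter. A gene is called higher or lower here when log2(CPM + 1) differed by at least 1.5-fold. Intervals on levels and ratios are 95% exact intervals that cover counting error only.

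On day 3, 269 of 6110 genes were higher (4.4%) and 338 were lower (5.53%). On day 5, 189 of 5722 genes were higher (3.3%) and 709 were lower (12.4%). Of 5325 genes compared on both days, 61 were higher on both (1.15%), 74 were lower on both (1.39%), and 18 passed in opposite directions. Many of these single calls rest on few UMIs. Against all other cells of the library without matching, 133 genes were higher and 171 lower on day 3. A second matched set held none of the other cells of the first, while the positive cells stayed the same. With it, 54 genes were higher on both days, 42 of them among the 61, and 63 were lower, 27 of them among the 74. The median of all genes was −0.04 on day 3 and −0.11 on day 5. TMM scaling moved every gene up by 0.16 on day 5 and split the calls of that day into 374 higher and 386 lower. The plot of day 3 against day 5 shows Hspb1, Dnajb1 and Hsph1 apart from the bulk of genes in both libraries.

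**Figure D2:**
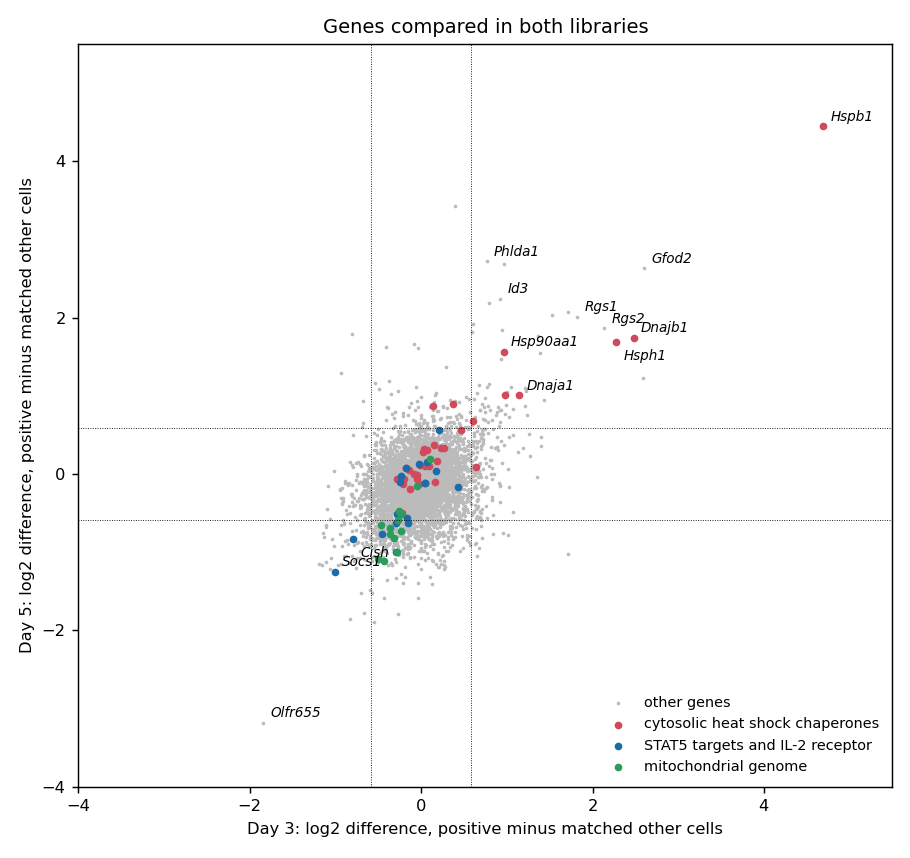
Log2 difference of CPM + 1 between positive and matched other cells on day 3 (x axis) and day 5 (y axis) for the 5325 genes compared on both days, with dotted lines at 1.5-fold. Hspb1 lies farthest out at 4.69 and 4.45, with Gfod2, Dnajb1, Rgs2, Hsph1 and Rgs1 among the genes on the upper right and Socs1 and Cish on the lower left.

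The largest difference was in Hspb1, which encodes the small heat shock protein HSP25, a holdase that keeps unfolded protein soluble. On day 3 it stood at 58.5 CPM (47.0 to 71.9) in positive cells and 1.30 CPM (0.157 to 4.69) in matched cells, a ratio of 45.0 (12.1 to 377) from 90 and 2 UMIs. On day 5 it stood at 81.5 CPM (67.4 to 97.7) and 2.79 CPM (0.759 to 7.13), a ratio of 29.3 (11.1 to 109). The positive cells held 90 of the 104 Hspb1 UMIs of the day 3 library (86.5%) and 117 of 132 on day 5 (88.6%), whereas they held 9.33% and 13.6% of all UMIs. Hspb1 was thus found in 40 of 288 positive cells against 14 of the 3183 others on day 3, and in 55 of 445 against 13 of 2805 on day 5. In the 19 other libraries its level was at most 0.325 CPM. The matched cells, at 1.30 and 2.79 CPM, thus also stood above those libraries, though the day 3 interval reaches down to 0.157. Being below 20 CPM in matched cells on both days, Hspb1 was compared only through the positive cells. A processed copy, Hsp25-ps1, shares 52.3% of its 31-base words, so reads of the 2 may be split.

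Among the partners of HSP70, the J-domain proteins Dnajb1, Dnaja1 and Dnajb4 and the exchange factor Hsph1 were higher on both days, and several others of these families did not pass on both. Dnajb1, a J-domain protein that delivers clients to HSP70, stood at 335 CPM (306 to 365) against 59.1 (47.6 to 72.6) on day 3 and at 175 (154 to 198) against 51.5 (40.5 to 64.7) on day 5. The ratios were 5.66 (4.52 to 7.15) and 3.39 (2.61 to 4.46). Hsph1, the HSP110 exchange factor, stood at 234 CPM against 47.4 on day 3 and 96.9 against 29.3 on day 5, ratios of 4.93 (3.82 to 6.43) and 3.31 (2.33 to 4.80). Dnaja1 was at 439 against 198 CPM and at 364 against 180 CPM, and Dnajb4 at 25.3 against 12.3 and 48.8 against 23.7. Dnajb4 was below 20 CPM in matched cells on day 3, so there it could only come out higher. The J-domain proteins Dnajb6 and Dnaja2 had log2 differences of −0.02 and −0.13 and of −0.23 and −0.50, and Hspa4, of the same family as Hsph1, of −0.20 and −0.06. Hspa4l, also of that family, stood at 0.64 and 0.09. Dnajb1 had a UMI in 60.8% of positive and 23.3% of matched cells on day 3, and in 36.0% and 13.9% on day 5. In the 19 other libraries Dnajb1 was at most 41.9 CPM and Hsph1 at most 38.7 CPM. The matched cells here also stood above those levels, for Dnajb1 on both days and for Hsph1 on day 3 only. Their intervals reach below those levels for Dnajb1 on day 5 (down to 40.5) and for Hsph1 on day 3 (down to 37.2). Dnaja1 reached 309 CPM in another library, above the matched cells of both days.

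Of the HSP90 pair, Hsp90aa1, the inducible form, was higher: 1914 CPM (1845 to 1984) against 982 (933 to 1032) on day 3 and 1388 (1328 to 1451) against 469 (435 to 506) on day 5. Hsp90ab1, the constitutive form, stood at 5039 against 4308 CPM and at 3896 against 3086, log2 differences of 0.23 and 0.34 that did not reach 1.5-fold. Hspa8, the constitutive HSP70, likewise stood at 0.46 and 0.56. Transcripts of pseudogenes share 46.7% of the 31-base words of Hsp90aa1 and 38.6% of those of Hspa8, so these levels are uncertain by what the counting split.

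Among the cytosolic heat shock chaperones as a list, 9 of 35 compared genes were higher and 0 lower on day 3, and 9 of 33 were higher and 0 lower on day 5, beside 4.4% and 3.3% of all genes higher. On both days it was 7 of 33, beside 1.15% of all genes, among them Hspb1, Dnajb1, Hsph1, Hsp90aa1, Dnaja1 and Dnajb4. Day 3 added Ahsa1 and Hspa4l, and day 5 added Cacybp and Ahsa2. The list's median was 0.09 on day 3 and 0.17 on day 5, beside −0.04 and −0.11 over all genes, and 12 of 35 and 9 of 33 compared members lay below 0. The 7 measured subunits of the chaperonin CCT other than Tcp1 lay between −0.29 and 0.18 on day 3 and between −0.07 and 0.28 on day 5. Hsf1 itself stood at 20.1 against 18.8 CPM on day 3. With each gene counted at most once per cell, 6 of 37 and 8 of 35 list members were past 1.5-fold, and with the second matched set 6 of 35 and 10 of 33, with 1 lower on day 3. Of the 5 of these 7 genes that have a window in the promoter table, 4 held a match in at least 1 of their windows, and of the other list members 4 of 29 did. Among all genes higher on both days that have a window, 6 of 36 held a match. Among those lower on both days it was 6 of 58, beside 8.91% of all genes. Dnajb1 held none at either of its 2 starts, which says only that these letters are not in those windows, and Dnajb4 held one at 1 of 2.

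Hspb1, Dnajb1, Hsph1, Dnaja1 and Hsp90aa1 stood highest in the cells with 10 or more Hspa1a and Hspa1b UMIs on both days. On day 3 Dnajb1 stood at 142 CPM in cells with 1 UMI, 294 with 2 to 4, 336 with 5 to 9 and 646 with 10 or more, beside 59.1 in matched cells with none. On day 5 the same steps were 88.1, 172, 192 and 299 CPM, beside 51.5. Hsp90aa1 stood at 1357, 1684, 2058 and 2785 CPM on day 3, and at 705, 1237, 1425 and 2603 on day 5. Hspb1 stood at 16.8, 58.2, 30.9 and 143 CPM on day 3 and at 12.6, 74.6, 114 and 170 on day 5, so its day 3 level did not go up at each step. Cells just inside the rule, with 1 UMI, thus stood between the cells with none and those with more for Dnajb1, Hsp90aa1 and Hspb1 on both days. Hspb1 had a UMI in 35.9% of cells with 10 or more Hspa1 UMIs on day 3 and in 22.1% on day 5. The median depth of the cells with 10 or more was 5674.5 UMIs on day 3 and 3398.5 on day 5, beside 5052.5 and 2943 in the cells with 1.

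**Figure D3:**
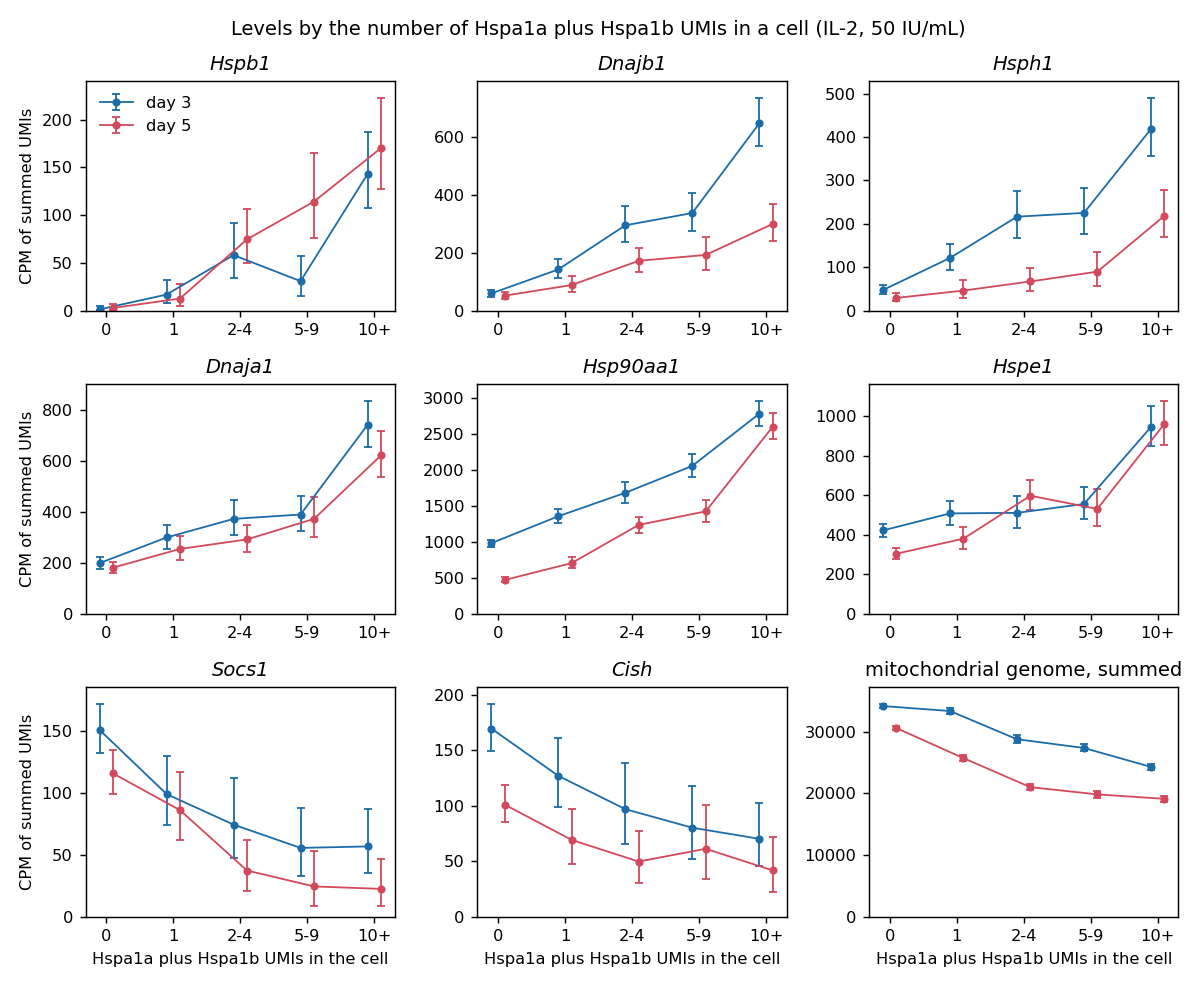
Level in CPM of summed UMIs (y axes, from 0) of 8 genes and of the summed mitochondrial genome, by the number of Hspa1a plus Hspa1b UMIs in a cell (x axes), for day 3 (blue) and day 5 (red), with 95% exact Poisson intervals; the point at 0 is the matched other cells. Dnajb1 goes from 59.1 to 646 CPM on day 3, and Socs1 from 151 to 56.7 CPM.

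In the lists of other compartments, the numbers higher were near the share of all genes higher, 4.4% on day 3 and 3.3% on day 5. The difference between these lists and the cytosolic one was not tested. In the mitochondrial list, none of 10 genes was higher on day 3 and 1 was on day 5, with medians of 0.00 and −0.09. That gene was Hspe1, the HSP10 lid of the mitochondrial chaperonin, at 592 CPM (553 to 634) against 304 (276 to 334) on day 5, and 624 against 422 on day 3 (log2 0.56). Its partner Hspd1, the HSP60 barrel, stood at 0.45 and 0.54. In the list of the endoplasmic reticulum's unfolded protein response, 0 of 20 were higher on day 3, and 0 of 17 were higher and 2 lower on day 5 (Dnajc3 −0.78 and Selenos −0.85), near the 12.4% of all genes lower on that day. Hspa5, the HSP70 of that compartment, stood at 0.19 and 0.09. The median of that list was 0.06 on day 3 and −0.24 on day 5. In the proteasome list, 0 of 31 genes were higher on either day, and 1 was lower on day 3 and 2 on day 5. The shares of all genes lower were 5.53% and 12.4%. The proteasome medians were −0.06 and −0.04. With TMM scaling the day 5 medians of the mitochondrial chaperones and the proteasome were above 0, at 0.06 and 0.11, but relative to the median of all genes they stood at 0.01 and 0.06, beside 0.02 and 0.07 before. With the second matched set the mitochondrial chaperones had medians of 0.10 and 0.14, beside 0.14 and 0.14 for the cytosolic list, and 2 of 10 were higher and 1 lower on day 5. Against all other cells without matching, the day 5 medians of the 2 lists were both 0.14.

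Stress genes outside the chaperones were higher in single members, beside 4.4% of all genes higher on day 3 and 3.3% on day 5. Ppp1r15a, the GADD34 subunit that reverses the phosphorylation of eIF2 alpha, stood at 47.4 against 17.5 CPM on day 3 and 66.9 against 22.3 on day 5, ratios of 2.70 (1.72 to 4.37) and 3.00 (1.99 to 4.63). Hmox1, heme oxygenase 1, stood at 26.6 against 9.75 and at 23.7 against 6.27 CPM. Below 20 CPM in matched cells, Hmox1 on both days and Ppp1r15a on day 3 could only come out higher. Ddit4, an inhibitor of mTORC1 signalling, was at 420 against 236 and 391 against 242 CPM. Of 19 compared genes of the ATF4 list, 3 were higher on day 3 and 2 on day 5. Besides Ppp1r15a and Ddit4, this was Ddit3 on day 3 (0.63). On day 5, 3 were lower (Asns −0.62, Vldlr −0.64, Aldh18a1 −0.86), near the 12.4% of all genes lower. The median of the ATF4 list was 0.03 and −0.02. The NRF2 list had no other member higher than Hmox1 on either day, and Txnrd1 was lower on day 3 (−0.69), with medians of −0.12 and 0.06. The ATF4 median of day 5 was 0.14 with TMM scaling, which left 1 member lower, and with the second matched set 0 were lower. The p53 and apoptosis list had Pmaip1, a BH3-only protein, higher on both days (0.88 and 0.80), and its median was 0.11 and −0.17. The metallothioneins Mt1 and Mt2 were higher on day 3 (0.86 and 0.75) and stood at 0.33 and 0.20 on day 5.

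Several immediate early genes, which T cells switch on soon after stimulation, were higher on day 3. On day 3, 7 of 15 compared immediate early genes were higher and 0 lower, beside 4.4% of all genes higher, with a median of 0.54. That median was 0.32 with the second matched set, 0.29 with totals without ribosomal and mitochondrial genes and 0.13 with each gene counted once per cell. Jun stood at 125 against 46.8 CPM, Atf3 at 24.0 against 9.10 and Zfp36 at 48.7 against 22.7. Atf3, below 20 CPM in matched cells, was compared only through the positive cells. On day 5, 3 of 16 were higher and 3 lower, beside 3.3% and 12.4% of all genes. The median was −0.17, beside −0.11 over all genes. It was 0.10 with the second matched set and 0.03 without matching. Jun then stood at 114 against 88.5 CPM (0.36), Zfp36 at −0.49, and Jund was lower (−0.97). Fosl2 and Nr4a1 were higher on both days, at 0.87 and 0.76 and at 0.60 and 1.82. With the second matched set, Nr4a1 stood at 0.04 on day 3. The difference between the days was not tested.

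The other genes furthest above the matched cells on both days were Rgs1, Rgs2, Ccl4, Id3 and Phlda1, together with Gfod2, Tmem267, C730034F03Rik and Gm10827. Of these, Rgs2, Ccl4, Phlda1, Gfod2 and Tmem267 were below 20 CPM in matched cells on both days, and Id3 on day 5. There they were compared only through the positive cells, so they could only come out higher. Rgs1 and Rgs2 encode regulators that shorten signals of G protein-coupled receptors. Rgs1 stood at 207 CPM (184 to 231) against 57.8 (46.4 to 71.2) on day 3 and 287 (260 to 316) against 70.4 (57.3 to 85.5) on day 5. It had a UMI in 48.6% of positive and 18.8% of matched cells on day 3 and in 46.1% and 17.3% on day 5. Rgs2 stood at 37.7 against 7.80 and 35.5 against 9.06 CPM. Ccl4, an inflammatory chemokine, stood at 27.9 against 7.80 and 53 against 11.8 CPM. Its day 3 UMIs came from 18 positive and 4 matched cells. Id3, an inhibitor of E proteins linked to less differentiated CD8 cells, stood at 63.7 against 33.1 CPM on day 3 and 56.5 against 11.1 on day 5. Phlda1 stood at 33.8 against 19.5 and 51.6 against 6.97 CPM.

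For Gfod2, Tmem267 and C730034F03Rik much of the CPM came from a small number of cells. Gfod2 had a log2 difference of 2.60 and 2.63, but its 105 day 3 UMIs lay in 17 of 288 positive cells, 24 of them in 1 cell. Counted once per cell, Gfod2 stood at 0.76 and 1.21. Tmem267 had 110 UMIs on day 3, 50 of them in 1 cell, and its difference of 2.59 became 1.99 without the highest cell of each group. C730034F03Rik had 214 UMIs on day 5 in 36 cells, and with the second matched set its 2.69 became 1.03. Gm10827, a long noncoding RNA, was spread over 49 and 38 positive cells against 19 and 9 matched cells and passed 1.5-fold in all 14 alternatives on both days. Of the 12 genes highest on both days, Hspb1, Dnajb1, Hsph1, Rgs1 and Id3 did so too. Rgs2 and Ccl4 passed in each alternative that compared them. The one that asks for 50 CPM could not compare Rgs2 on either day or Ccl4 on day 3.

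Within single libraries the list of extremes also held Cd83 on day 3 and Arhgap39, 5430421F17Rik and Gm34455 on day 5. On the day given, each was below 20 CPM in matched cells and so could only come out higher. Cd83, an activation marker, had 41 UMIs in 36 positive cells and 7 in matched cells (26.6 against 4.55 CPM), and no UMI in either group on day 5. The noncoding RNA 5430421F17Rik had 69 UMIs in 44 positive cells on day 5 against 6 in matched cells. Arhgap39 had 165 UMIs in 28 positive cells against 14 on day 5, and stood at 0.39 on day 3. The 40 UMIs of Gm34455 lay in 7 cells. At the other end, Gm10457 stood at −4.28 on day 5 because 42 of its 46 UMIs in matched cells lay in 1 cell.

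Socs1 and Cish, feedback inhibitors that IL-2 is known to induce through the transcription factor STAT5, were lower on both days, and the related Socs2 stood at 105 against 129 CPM on day 3 (−0.30) and 55.1 against 111 CPM on day 5. Socs1 stood at 74.7 CPM (61.7 to 89.7) in positive cells and 151 (132 to 171) in matched cells on day 3. On day 5 it stood at 48.1 (37.4 to 60.9) and 116 (98.7 to 135). Cish stood at 97.4 (82.5 to 114) against 170 (150 to 191) CPM and at 56.5 (44.8 to 70.2) against 101 (85.2 to 119). Along the steps of Hspa1 UMIs, Socs1 stood at 98.9, 74.3, 55.5 and 56.7 CPM on day 3 and at 86.0, 37.3, 24.5 and 22.5 on day 5. Osm, a cytokine of the IL-6 family, had 4 UMIs in positive and 44 in matched cells on day 3, a ratio of 0.0909 (0.0237 to 0.250). On day 3 Osm was below 20 CPM in positive cells (2.60 against 28.6 CPM), so it could only come out lower. On day 5 it had 10 and 23 UMIs and was below 20 CPM in both groups.

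Of this STAT5 and IL-2 receptor list, 3 of 19 genes were lower on day 3 and 6 of 18 on day 5, and 0 were higher on either day, beside 5.53% and 12.4% of all genes lower. The 3 were Socs1, Cish and Osm, and the 6 were Socs1, Cish, Socs2, Pim1, Ccnd2 and Myc. The receptor chains did not reach 1.5-fold: Il2ra stood at −0.16 and −0.56, Il2rb at −0.28 and −0.51, and Il2rg at 0.05 and −0.12. The list's median was −0.18 and −0.14, and with TMM scaling, or with each gene counted once per cell, that of day 5 was 0.01 with 4 genes lower, and with TMM scaling 1 was higher. Relative to the median of all genes it was −0.14 on day 3 and −0.03 on day 5. Cdkn1a, a member of this list as well as of the p53 list, stood at 0.20 and 0.56.

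Effector genes of cytotoxic cells were divided. Klrd1 (the CD94 receptor chain), Serpinb9 (a granzyme B inhibitor) and Tnf were lower on both days, at −0.78 and −0.91, −0.88 and −0.86, and −0.59 and −1.48. Klrd1 stood at −0.20 on day 3 with the second matched set. Prf1, the pore-forming perforin, was at 13.2 against 36.2 CPM on day 5. Being below 20 CPM in positive cells there, it could only come out lower. Gzmb stood at 1645 against 2025 and 1477 against 1816 CPM, which did not reach 1.5-fold. Ccl4, also of this list, was higher as given above. In all, 3 of 10 genes were lower and 1 higher on day 3, and 4 of 12 lower and 2 higher on day 5, with medians of −0.29 and −0.31, beside 5.53% and 12.4% of all genes lower. With the second matched set the medians were −0.20 and −0.12, on day 5 with TMM scaling −0.16, and on day 3 with each gene counted once per cell −0.02 with 2 higher and 1 lower.

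Other genes lower on both days included Kcnq1ot1, Lfng, Tuba4a, Nedd9 and Fasn. Kcnq1ot1, an imprinted noncoding RNA that overlaps Kcnq1 on the other strand, stood at 50.0 against 116 CPM on day 3 and 38.3 against 86.4 on day 5. It passed 1.5-fold in all 14 alternatives on both days, as Socs1 did. Lfng passed in each alternative that compared it, 13 on day 3 and 14 on day 5. Lfng, which modifies Notch receptors, stood at 22.1 against 48.7 and 36.9 against 81.5 CPM. Fasn, the fatty acid synthase, was at 42.2 against 67.6 and 9.06 against 33.4 CPM. The 12 lowest also held Slc10a7, Zfp950, Fbxo9, Ankrd49 and Ext2, each with under 50 UMIs in matched cells on day 5. On that day these genes, Nedd9, Fasn and Olfr655 were below 20 CPM in positive cells. So were Slc10a7, Zfp950, Fbxo9, Ext2, Nedd9 and Olfr655 on day 3. There they were compared only through the matched cells, so they could only come out lower. Olfr655 was lowest at −1.84 and −3.18, but 27 of its 47 matched UMIs on day 3 and 23 of 66 on day 5 lay in 1 cell.

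The share of mitochondrial RNA was lower in positive cells. The 13 protein-coding genes of the mitochondrial genome summed to 28980 CPM in positive and 34145 CPM in matched cells on day 3 and to 21954 and 30574 CPM on day 5. On day 5, 9 of the 13 were lower and 0 higher (median −0.69), beside 12.4% of all genes lower; on day 3 none passed (median −0.29). On day 5 TMM scaling left 5 lower. Along the steps of Hspa1 UMIs the sum was 33336, 28769, 27347 and 24283 CPM on day 3 and 25706, 21004, 19828 and 19109 on day 5. With cells of at most 5% mitochondrial UMIs only, 64 genes were higher on both days, 54 of them among the 61, and 83 were lower, 52 of them among the 74. Ribosomal protein genes took 31.4% of UMIs in positive and 31% in matched cells on day 3, and 33.8% and 31.9% on day 5. The part of these shares in the gene differences was not tested beyond that.

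Cycling markers were found in a larger share of positive than of matched cells on day 5, and the shares of day 3 were closer. Mki67 or Top2a, which mark cycling cells, had a UMI in 56.2% of positive (51.1% to 61.3%) and 44.0% of matched cells (39.0% to 49.1%) on day 5 after thinning to 2000 UMIs. On day 3 the shares were 71.2% (65.5% to 76.4%) and 66.5% (60.7% to 72.0%), whose intervals overlap. Without thinning the shares were 56.2% and 47.0% on day 5 and 83.0% and 76.7% on day 3. In positive cells with 1, 2 to 4, 5 to 9 and 10 or more Hspa1 UMIs, the thinned shares of day 5 were 50.4%, 51.4%, 53.5% and 74.1%. On day 3 the same steps were 68%, 73.4%, 75.9% and 69.8%. The median of the G2 and mitosis list was 0.22 on day 5 and −0.03 on day 3 (0.02 with TMM scaling). On day 5, 2 of its 24 genes were higher and 0 lower, beside 3.3% and 12.4% of all genes. The median of the S phase list was −0.21 on day 3 and 0.07 on day 5. Matching on Mki67 or Top2a as well as on depth left 55 of the 61 genes higher on both days and 51 of the 74 lower.

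Genes of glycolysis, stemness, inhibitory receptors and ribosome biogenesis are given as single members and medians. Of all genes, 4.4% were higher and 5.53% lower on day 3, and 3.3% and 12.4% on day 5. Slc2a3, the glucose transporter GLUT3, was higher on both days (0.72 and 0.70) as 1 of 17 glycolysis genes, whose medians were 0.17 and 0.09. Id3 and S1pr1 were higher and Ly6c2 lower on day 3 among 15 stemness and naive genes, and Id3 was higher and Bach2 and Ly6c2 lower on day 5, with medians of 0.11 and −0.17. Ctla4, an inhibitory receptor, was at 799 against 485 CPM on day 3 (0.72) and 616 against 456 on day 5 (0.43), and the 4 compared genes of its list had medians of 0.50 and −0.01 (0.14 on day 5 with TMM scaling). The ribosome biogenesis list had medians of −0.31 and −0.22, with 1 of 20 and 2 of 15 genes lower, near the 5.53% and 12.4% of all genes. With the second matched set, 3 of the 4 inhibitory receptors were higher and 4 of 20 ribosome biogenesis genes were lower on day 3. The strip plot of the lists shows each member.

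**Figure D4:**
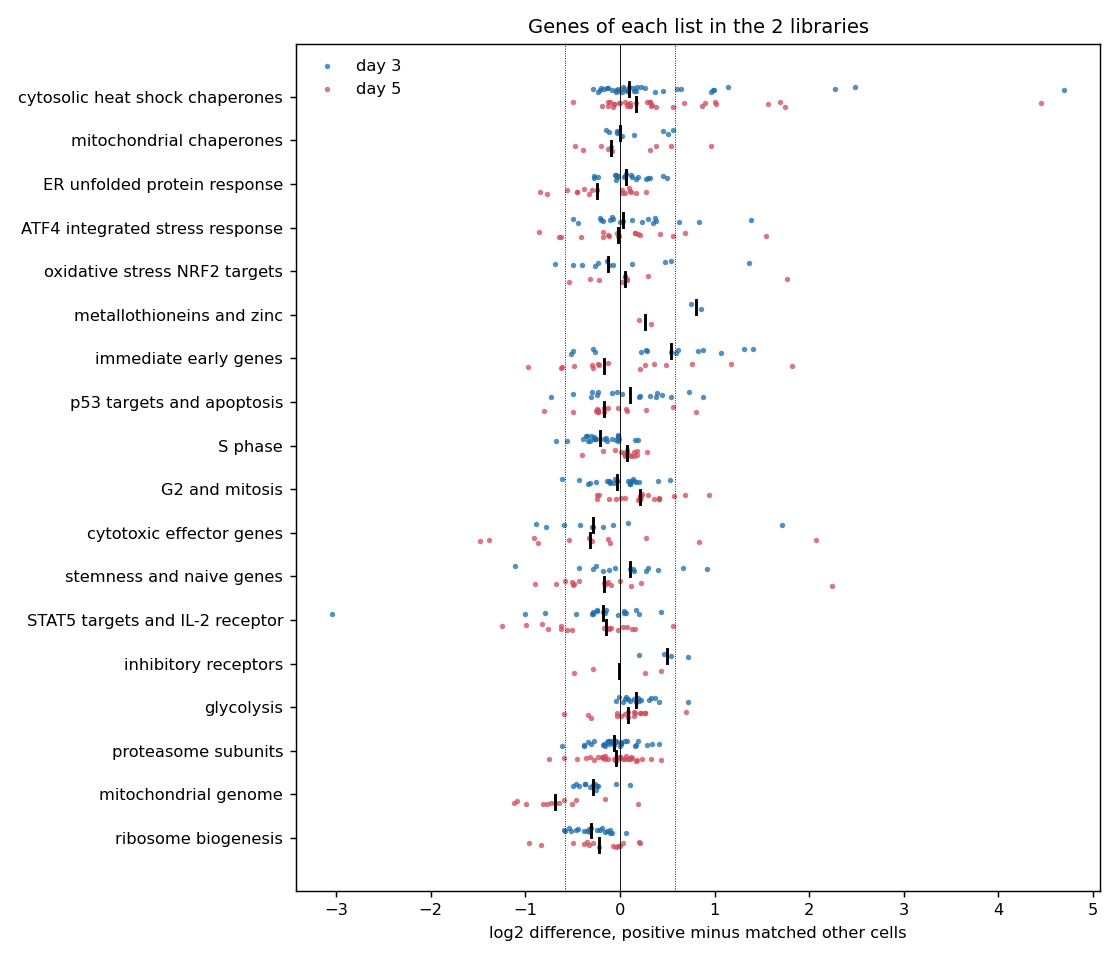
Log2 difference of CPM + 1 between positive and matched other cells (x axis) for each compared gene of 18 lists (rows), on day 3 (blue) and day 5 (red), with black ticks at the medians and dotted lines at 1.5-fold. Hspb1, Dnajb1 and Hsph1 lie to the right of the other chaperones, and the median of the mitochondrial genome is at −0.29 and −0.69.

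The other libraries held few positive cells, and a small set of genes was summed in those with the most. In 50 IU/mL IL-2v on day 10, with 45 positive cells, Dnaja1 had 67 UMIs in positive and 31 in matched cells, Hsp90aa1 178 and 119, Dnajb1 11 and 5, Hsph1 6 and 6 and Hspb1 1 and 0. Rgs1 had 15 and 5, Cish 32 and 38 and Socs1 8 and 24. In naive cells, with 24 positive cells, Dnaja1 had 29 and 27 UMIs, Dnajb1 4 and 6, Hsph1 2 and 2, Hspb1 0 and 0, Rgs1 5 and 0, Cish 1 and 1 and Socs1 9 and 7. Barcodes shared by the day 3 and day 5 libraries numbered 3, none of them positive in both, and pairs of libraries shared 1 to 19.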

How the data were processed

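The authors deposited 1 table of raw UMI counts per library, made with Cell Ranger and Seurat (4.0.1 and 3.0.2) on build mm10 per the submitters' processing notes; how each was used, doublet removal and strand handling are not given in the sources used here. The cell filter asked for 1000 UMIs, 500 genes and no more than 10% of UMIs from mitochondrial genes, which removed 2 cells; no doublet caller was run, and cells over 2 times the library's median UMIs were left out as an alternative. Groups followed titles and the design text. Matching, sums, CPM, log2(CPM + 1) and exact intervals were computed in Python 3.11.15 (numpy 2.4.6, scipy 1.17.1), and TMM factors in edgeR 4.0.16 as an alternative scaling. The comparison was run on simulated sums with known fold changes and counting error only. These lack the clumping of UMIs in single cells, so they do not show how reliable single calls are. The positive cells and gene lists were chosen with earlier results of these data known. Named genes were list members, the 12 highest and 12 lowest of those past 1.5-fold alike on both days, and the 5 highest and lowest of each day. Positions and overlaps came from GENCODE for GRCm38, and promoter windows from RefSeq. Planned were 12 alternatives, and 2 were added after seeing the data: each gene counted once per cell, and a second matched set. The values of some list members are not reported here.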

Additional observations from a re-analysis of the deposited data

Results flagged for a closer look

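The median log2 difference of the immediate early genes between positive and matched other cells was 0.54 on day 3 and −0.17 on day 5. The median of all genes was −0.04 and −0.11. Relative to it, the list stood at 0.58 on day 3 and only −0.06 on day 5. The difference between the days was not tested, since each day is 1 library. With the second matched set the medians were 0.32 and 0.10, so the sign on day 5 hung on the matched cells.

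Positive cells made up 0.884% of the library of 50 IU/mL IL-2v on day 10 (45 of 5090 cells), above the libraries without cytokine (8 of 4456 cells on day 3, and 0 of 6112 on day 5, which by the limit of 3 counts allows up to 0.0491%). No day 10 library without cytokine is among those used here. Naive cells, also without cytokine, stood at 0.502% (24 of 4777 cells). Each is 1 library, so these shares carry counting error only and do not show a difference between conditions.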

How the results depend on the processing

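Of 14 other settings, 2 were chosen after seeing the data. The 35 genes highest or lowest on both days or on 1 day were chosen for their size, so their kept direction is no sign of stability. Of their 753 values, 731 stayed on their side of 1.5-fold, 18 no longer passed and 4 newly passed. Counts of genes moved most, and the cause was not tested except where fewer or more genes were compared. The share of positive cells was 6.57% and 11.4% after thinning to 2000 UMIs (6.36% and 11.5% in another random draw), and 5.46% and 9.63% with at least 2 UMIs required and the cells with 1 left out of the total (184 of 3367 and 299 of 3104 cells). Without matching, 133 genes were higher and 171 lower on day 3; with weights over 20 strata of depth these were 144 and 181. With at least 2 UMIs required, the counts were 420 and 630 on day 3, 319 and 1116 on day 5, and 99 and 179 on both days. With a pseudocount of 10 they were 124 and 125 on day 3, 124 and 382 on day 5, and 29 lower on both. With at least 50 CPM they were 87 and 71, 83 and 215, and 35 and 18; with at least 1 UMI, 1736 and 2105, 1371 and 3004, and 347 and 630. Thinning gave 628 lower on day 3 and 170 lower on both. Totals without ribosomal and mitochondrial genes gave 528 lower on day 3, 324 higher on day 5 and 128 lower on both. TMM scaling gave 374 higher and 386 lower on day 5, 43 lower on both, and a day 5 chaperone median of 0.38. Counting each gene once per cell gave 525 and 633 on day 3, 460 higher on day 5 and 132 lower on both. Depth limits single genes: 20 CPM is about 31 UMIs on day 3 and 29 on day 5. Each condition is 1 library, so no analysis paired across replicates was possible. Positive and matched other cells were compared within the same library.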
